A study of Mus musculus with 2 samples.

Results

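The genes described here encode 40 chromatin proteins that are not Polycomb subunits: trithorax and COMPASS proteins, histone demethylases, DNA methylation and TET enzymes, SWI/SNF subunits and CHD remodellers. They were chosen by name, with earlier results of these data known. A gene was looked up in the authors' table of genes that had a Ring1b interval inside them or within 10 kb. Of the 40, 15 were listed there by name. Another 2 were listed under older symbols, Kmt2c as Mll3 and Kmt2e as Mll5, so that 17 of 40 were listed by gene identifier. An 18th, Chd8, had a merged region over the start of its reference promoter window, which lies inside the outermost reference start, but was not itself listed in the table. Over the whole series, the table listed 3993 genes.

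Binding of Ring1b, which gives Polycomb repressive complex 1 (PRC1) its ubiquitin ligase activity, was located with chromatin immunoprecipitation sequencing (ChIP-seq) in incisor pulp cells of CD1 mice at postnatal day 5. The mice had received 1 intraperitoneal dose of 5-ethynyl-2'-deoxyuridine (EdU, 3.3 µg per g), a thymidine analogue taken up by cells that copy their DNA, and were killed 24 h later. EdU-positive pulp cells were sorted, and there was 1 ChIP sample and 1 input DNA sample from the same kind of cells. The files name 2 sets of ChIP intervals as replicates 1 and 2, called run 1 and run 2 here. The labels give 1 ChIP sample, so the sets were counted as 1 sample. No SD and no p-value is given, and nothing below compares ChIP with input. Run 1 held 465 intervals and run 2 held 3938, which merged into 4316 regions. Sequencing depth is unknown, and summit heights are the authors' own whole-number values on a scale that is not stated. The sort selects on DNA synthesis and not on a cell type, and a list of intervals gives no expression with which to check the pulp identity of the cells.

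Trithorax group proteins were found in flies as the counterpart of Polycomb. COMPASS complexes methylate lysine 4 of histone H3 (H3K4), a mark of active starts and enhancers, and SWI/SNF complexes move nucleosomes with energy from ATP. PRC1 marks histone H2A with ubiquitin, and Polycomb repressive complex 2 methylates lysine 27 of histone H3 (H3K27). DNA methylation at CpG sites and Polycomb marks tend to occupy different CpG islands, and TET enzymes start the removal of DNA methylation.

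Ring1b intervals were assigned to 17 of the 40 genes (42.5%, exact Clopper-Pearson 95% interval 27 to 59.1%, counting error only). Over all 21887 protein-coding genes the share was 15.8%. The genes with an interval were Kmt2c, Setd1b, Wdr5, Dpy30, Kmt2e, Kdm2a, Kdm4b, Kdm6b, Dnmt3a, Dnmt3l, Uhrf1, Tet2, Tet3, Smarca2, Arid1a, Arid1b and Chd7. Their heights ran from 3 at Dnmt3a and Kmt2e to 9 at Chd7, with a median of 4, the same as over all 3461 protein-coding genes with an interval. A height of 5 or more was reached by 8 of the 17 (47.1%) and by 49.9% of all protein-coding genes with an interval, and 6 or more by 5 of the 17 (29.4%) and by 26.9%. Counted over all 40 genes, 8 (20%) had an interval of height 5 or more, against 7.9% of protein-coding genes, and 5 (12.5%) had one of 6 or more, against 4.25%. The share of the list was thus above the background, whereas the heights were near it. As the list was chosen with earlier results of these data known, this share describes the sample and does not test enrichment. Kdm4b and Uhrf1 were listed through the same interval.

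**Figure D1:**
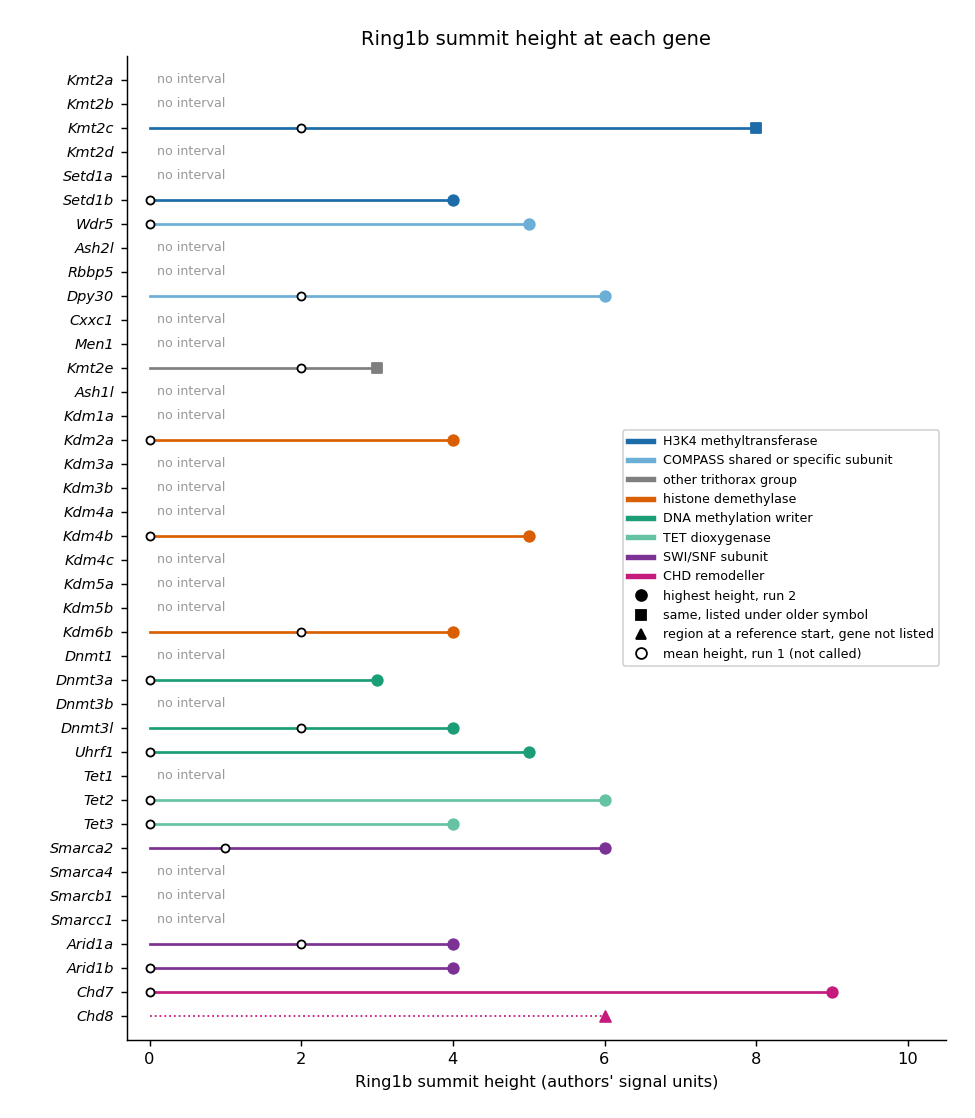
Highest Ring1b summit height (x axis, authors' signal units) at each of the 40 genes (rows, coloured by role), with the mean height in run 1 as open circles. Chd7 (9) and Kmt2c (8) stand highest, the other 15 listed genes lie between 3 and 6, and no open circle is above 2.

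**Figure D2:**
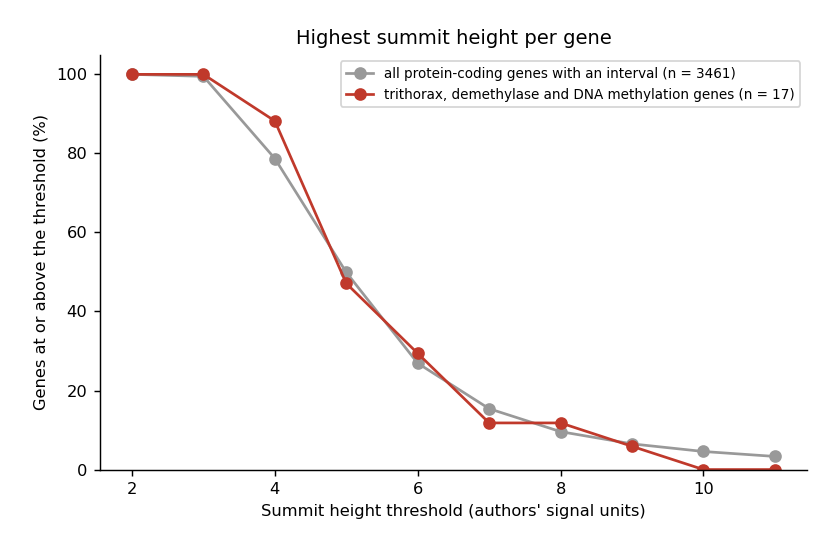
Share of genes (y axis, %) whose highest summit reaches each height threshold (x axis, authors' signal units), for the 17 listed genes and for all 3461 protein-coding genes with an interval. The curves run close to each other, with 47.1% and 49.9% of genes at a height of 5 or more.

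Over all protein-coding genes, the longest were listed most often. In deciles of gene length, the share was 1.87% in decile 1, the shortest, and 13.8 to 16.9% in deciles 2 to 8. It was 23.2% in decile 9 and 28.0% in decile 10. Among the 40, the count did not rise steadily: 5 of 7 in decile 6, 0 of 6 in decile 8 and 5 of 7 in decile 10. The median reference length was 77805 bp in the 17 genes with an interval and 52255 bp in the 23 without one. It was 17169 bp over all protein-coding genes and 28068 bp over those with an interval. Weighting the background by the length deciles of the 40 genes raised it from 15.8% to 20.5%. The part of gene length in the share was not tested.

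All 17 genes were called in run 2 and none in run 1, in which 1.73% of protein-coding genes had an interval. The authors' table also gives a run 1 mean height for genes that run 1 did not call. It was 0 at 10 of the 17 genes, 1 at Smarca2 and 2 at Kmt2c, Dpy30, Kmt2e, Kdm6b, Dnmt3l and Arid1a. It was thus above 0 at 41.2% of the 17, against 47.3% of the 3083 protein-coding genes with a run 2 call alone. The intervals described here therefore rest on 1 of the 2 runs.

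Within 2.5 kb of a gene's start in the authors' table, 11 of the 40 genes had an interval (27.5%, exact 95% interval 14.6 to 43.9%), against 10.4% of protein-coding genes. These were Kmt2c, Wdr5, Kmt2e, Kdm2a, Kdm4b, Kdm6b, Dnmt3a, Tet2, Smarca2, Arid1b and Chd7. Among genes with an interval, 64.7% of the 17 and 65.7% of all protein-coding ones had it there, so the shares were close. Taking the highest interval of each gene, the median height of these 11 genes was 5, against 4 at the 6 other genes. This difference hangs on Kmt2c, whose highest interval (8) lies nearer to the start of another gene. If the Kmt2c interval closer to its own start (height 4) is used in its place, the difference disappears. The start used matters for some genes: from the outermost start in the GRCm38.p6 reference, 10 of the 17 had an interval within 2.5 kb. Arid1a entered by that measure, and Kdm6b and Dnmt3a left. By either start the count was 12, and Setd1b, Dpy30, Dnmt3l, Uhrf1 and Tet3 were near neither.

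The 17 genes held 22 different intervals, 435 to 2083 bp wide, with a median of 710 bp against 678 bp over intervals at protein-coding genes. For 9 of the 22, the nearest start among the assigned genes belonged to a gene outside the list. Counted by gene, 11 of the 17 (64.7%) had at least 1 interval for which their own start was nearest. Over all protein-coding genes with an interval this share was 73.8%, and the difference was not tested. At Dpy30, Dnmt3l and Uhrf1 the intervals lay past the 3' end of the gene, within 2.5 kb of the start of another gene.

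**Figure D3:**
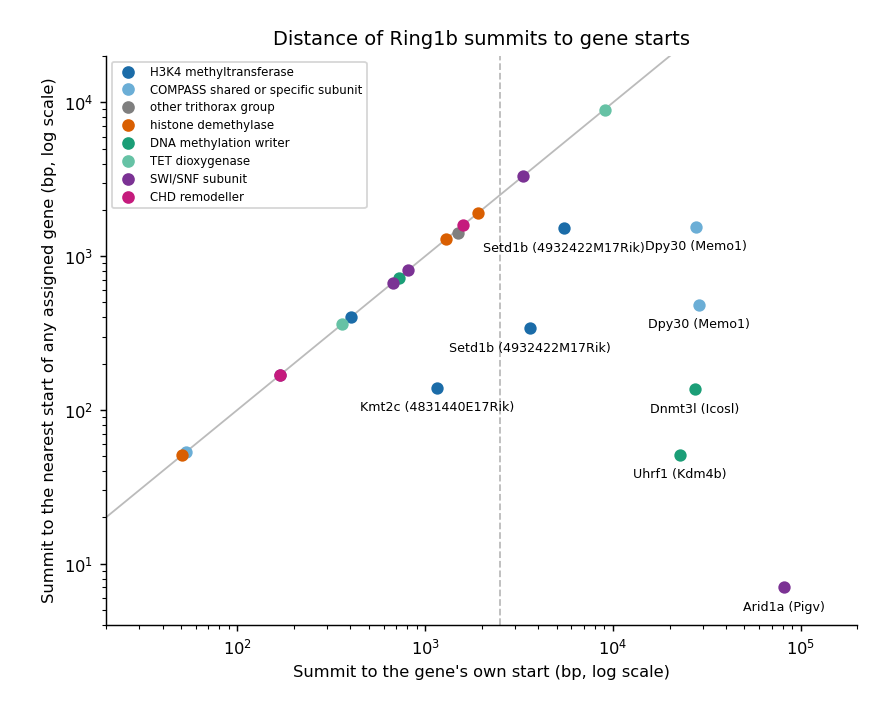
Distance from each Ring1b summit to the start of the listed gene (x axis, bp, log scale) and to the nearest start of any gene to which the interval was assigned (y axis, bp, log scale), with the dashed line at 2.5 kb. Labelled points fall below the diagonal because another gene, in brackets, starts closer, as for Uhrf1 (22764 bp from its own start and 51 bp from that of Kdm4b).

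The letters under the signal are shown for the genes whose reference promoter window, 250 bases before to 50 after a start, was overlapped by an interval. RefSeq (GRCm38.p6) gave a window for 28 of the 40 genes. The share of overlapped windows was not counted over all protein-coding genes, so the count here has no background. Of the 28 genes, 6 had a window that was overlapped: Wdr5, Smarca2, Arid1a, Kmt2c, Tet2 and Chd8. Each is printed 5' to 3' on the gene's strand with CG dinucleotides in capitals, since CpG-rich starts are where vertebrate PRC1 is known to bind.
Wdr5: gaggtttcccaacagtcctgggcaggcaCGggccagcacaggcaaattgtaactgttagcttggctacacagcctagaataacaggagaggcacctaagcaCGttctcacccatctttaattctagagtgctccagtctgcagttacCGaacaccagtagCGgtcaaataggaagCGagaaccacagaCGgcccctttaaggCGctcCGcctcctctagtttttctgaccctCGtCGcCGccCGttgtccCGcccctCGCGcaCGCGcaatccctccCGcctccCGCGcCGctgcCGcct
Smarca2: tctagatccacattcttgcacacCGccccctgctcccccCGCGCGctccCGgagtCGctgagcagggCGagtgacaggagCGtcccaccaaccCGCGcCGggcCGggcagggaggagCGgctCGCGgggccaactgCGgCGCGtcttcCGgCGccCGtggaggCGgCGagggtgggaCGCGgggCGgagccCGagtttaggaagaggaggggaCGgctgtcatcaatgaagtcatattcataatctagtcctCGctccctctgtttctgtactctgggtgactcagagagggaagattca
Arid1a: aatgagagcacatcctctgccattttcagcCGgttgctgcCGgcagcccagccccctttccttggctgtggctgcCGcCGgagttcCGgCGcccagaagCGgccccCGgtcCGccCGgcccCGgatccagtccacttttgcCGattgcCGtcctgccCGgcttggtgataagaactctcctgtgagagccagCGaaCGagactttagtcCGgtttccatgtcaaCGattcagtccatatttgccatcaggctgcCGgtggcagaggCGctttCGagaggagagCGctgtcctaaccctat
Kmt2c: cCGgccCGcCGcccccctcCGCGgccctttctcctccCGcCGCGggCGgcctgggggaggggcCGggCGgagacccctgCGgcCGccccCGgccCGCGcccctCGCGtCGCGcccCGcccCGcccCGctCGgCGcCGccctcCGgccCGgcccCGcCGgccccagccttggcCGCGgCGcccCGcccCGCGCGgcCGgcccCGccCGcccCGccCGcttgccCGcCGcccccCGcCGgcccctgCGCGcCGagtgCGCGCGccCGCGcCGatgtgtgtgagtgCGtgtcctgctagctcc
Tet2: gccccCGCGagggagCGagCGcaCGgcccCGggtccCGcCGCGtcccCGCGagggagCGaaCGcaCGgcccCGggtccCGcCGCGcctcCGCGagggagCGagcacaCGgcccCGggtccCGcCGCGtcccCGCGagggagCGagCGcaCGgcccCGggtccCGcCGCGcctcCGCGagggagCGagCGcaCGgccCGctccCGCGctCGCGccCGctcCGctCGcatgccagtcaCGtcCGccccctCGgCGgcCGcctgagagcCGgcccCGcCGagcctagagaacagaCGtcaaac
Chd8: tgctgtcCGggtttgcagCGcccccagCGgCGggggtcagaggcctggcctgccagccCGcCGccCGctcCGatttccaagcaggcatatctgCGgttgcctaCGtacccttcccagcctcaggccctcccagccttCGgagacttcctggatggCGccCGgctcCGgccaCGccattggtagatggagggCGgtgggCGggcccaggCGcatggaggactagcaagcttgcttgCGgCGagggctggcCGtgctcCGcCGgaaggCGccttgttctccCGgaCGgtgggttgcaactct

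The windows of Wdr5 (chr2:27514897-27515196, plus strand), Smarca2 (chr19:26604910-26605209, plus strand) and Arid1a (chr4:133756720-133757019, minus strand) lay wholly inside an interval, with all 300 bases covered. An interval covered 176 bases of the Chd8 window (chr14:52257711-52258010, minus strand), 62 of the Kmt2c window (chr5:25498734-25499033, minus strand) and 36 of the Tet2 window (chr3:133544341-133544640, minus strand). The windows held 22 CG dinucleotides at Wdr5 and at Arid1a, 26 at Chd8, 29 at Smarca2, 56 at Kmt2c and 57 at Tet2. Over 21263 windows of protein-coding genes the median was 13, with quartiles of 4 and 24. The Tet2 window had a GC content of 81.3% and the Kmt2c window 88.0%, against 59.0% at Wdr5.

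For 3 of these genes the window of a paralogue without an interval is set beside it. These are Smarca4 (chr9:21615919-21616218, plus strand), Kmt2d (chr15:98871156-98871455, minus strand) and Tet1 (chr10:62887275-62887574, minus strand), again with CG in capitals.
Smarca4: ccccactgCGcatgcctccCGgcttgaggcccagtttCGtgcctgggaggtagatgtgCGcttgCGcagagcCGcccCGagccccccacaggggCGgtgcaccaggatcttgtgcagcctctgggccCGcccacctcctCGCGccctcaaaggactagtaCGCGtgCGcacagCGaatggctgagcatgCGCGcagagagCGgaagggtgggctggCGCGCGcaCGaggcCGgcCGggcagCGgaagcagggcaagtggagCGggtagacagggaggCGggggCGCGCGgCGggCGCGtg
Kmt2d: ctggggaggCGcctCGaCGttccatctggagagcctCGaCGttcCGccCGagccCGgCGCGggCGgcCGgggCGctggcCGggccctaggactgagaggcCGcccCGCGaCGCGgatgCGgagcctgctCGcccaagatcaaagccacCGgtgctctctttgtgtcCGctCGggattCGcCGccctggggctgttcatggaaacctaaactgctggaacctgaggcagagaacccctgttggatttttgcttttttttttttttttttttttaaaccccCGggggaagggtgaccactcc
Tet1: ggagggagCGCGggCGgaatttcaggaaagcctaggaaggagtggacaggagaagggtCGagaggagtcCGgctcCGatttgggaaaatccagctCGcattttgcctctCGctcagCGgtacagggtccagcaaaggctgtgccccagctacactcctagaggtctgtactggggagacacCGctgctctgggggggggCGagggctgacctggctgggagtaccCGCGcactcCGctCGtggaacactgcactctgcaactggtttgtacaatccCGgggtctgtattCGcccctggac

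Smarca4 held 33 CG dinucleotides, Kmt2d 27 and Tet1 17, all above the median of 13. The windows with an interval (22 to 57) and these without one (17 to 33) overlapped in CG number. All 9 windows held GGGCGG, the core of an Sp factor site, on one of the strands, as did 46.2% of all windows. The 9 all lay above the median CG number, and windows of like CG number were not compared. CCGGAAG, an ETS type motif, was present at Smarca2 and Chd8 and in 11.6% of all windows, and CCAAT at Chd8 and in 38.2%. TATAAA (12.6% of all windows) and ACTACAA (3.6%), searched like the others on both strands, were in none of the 9. No comparison of sequence over the whole list was made: with windows for only 70% of the genes, it would be void.

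Of the 6 H3K4 methyltransferase genes, 2 had an interval (33.3%, exact 95% interval 4.33 to 77.7%). In each of the 8 roles described from here on, the exact interval includes the 15.8% of all protein-coding genes. Kmt2c, which encodes an enzyme that places monomethyl H3K4 at enhancers, had an interval of height 4 over its start at chr5:25497727-25498795 and one of height 8 at chr5:25499525-25500207. The higher one lay 1153 bp upstream of the Kmt2c start and 139 bp inside 4831440E17Rik, which runs in the opposite direction. The height of 8 listed for Kmt2c is therefore that of an interval nearer to another start. Kmt2d, the paralogue with the same role, had no interval, and its nearest region lay 59748 bp away, at Tuba1b. Setd1b, which encodes a trimethylating COMPASS enzyme, had intervals of height 4 and 3 whose summits lay 5457 and 3601 bp upstream of its start. The second of these lay 340 bp inside 4932422M17Rik, so neither was closest to Setd1b. Setd1a, Kmt2a and Kmt2b had none, with the nearest regions 68266, 198284 and 246356 bp away.

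Among the 6 genes for COMPASS subunits, 2 had an interval (33.3%, exact 95% interval 4.33 to 77.7%). Wdr5, which encodes a core subunit of all COMPASS complexes, had an interval of height 5 and 929 bp over its start at chr2:27514688-27515616, with the summit 53 bp inside the gene. Dpy30, another core subunit gene, had heights of 6 and 4 at chr17:74293949-74295715 and chr17:74295969-74296616. Both lay past its 3' end, with summits 28600 and 27528 bp from its own start and 481 and 1553 bp upstream of Memo1. Ash2l and Rbbp5, the other core subunit genes, had none, nor had Men1, which encodes menin, or Cxxc1, which encodes a CpG-binding subunit. Men1 lay nearest to a region among these, at 22625 bp.

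Of the other trithorax genes, Kmt2e, a relative of the MLL genes, had 1 interval of height 3 at chr5:23432540-23433227. Its summit lay 1501 bp upstream of the start in the authors' table, and the interval overlapped the outermost reference start. It also lay inside 5031425E22Rik, which runs the opposite way, 1425 bp from that start. Ash1l, which encodes a methyltransferase of lysine 36 of histone H3, had none; its nearest region, of height 3, was 11144 bp away, just outside the 10 kb limit.

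**Figure D4:**
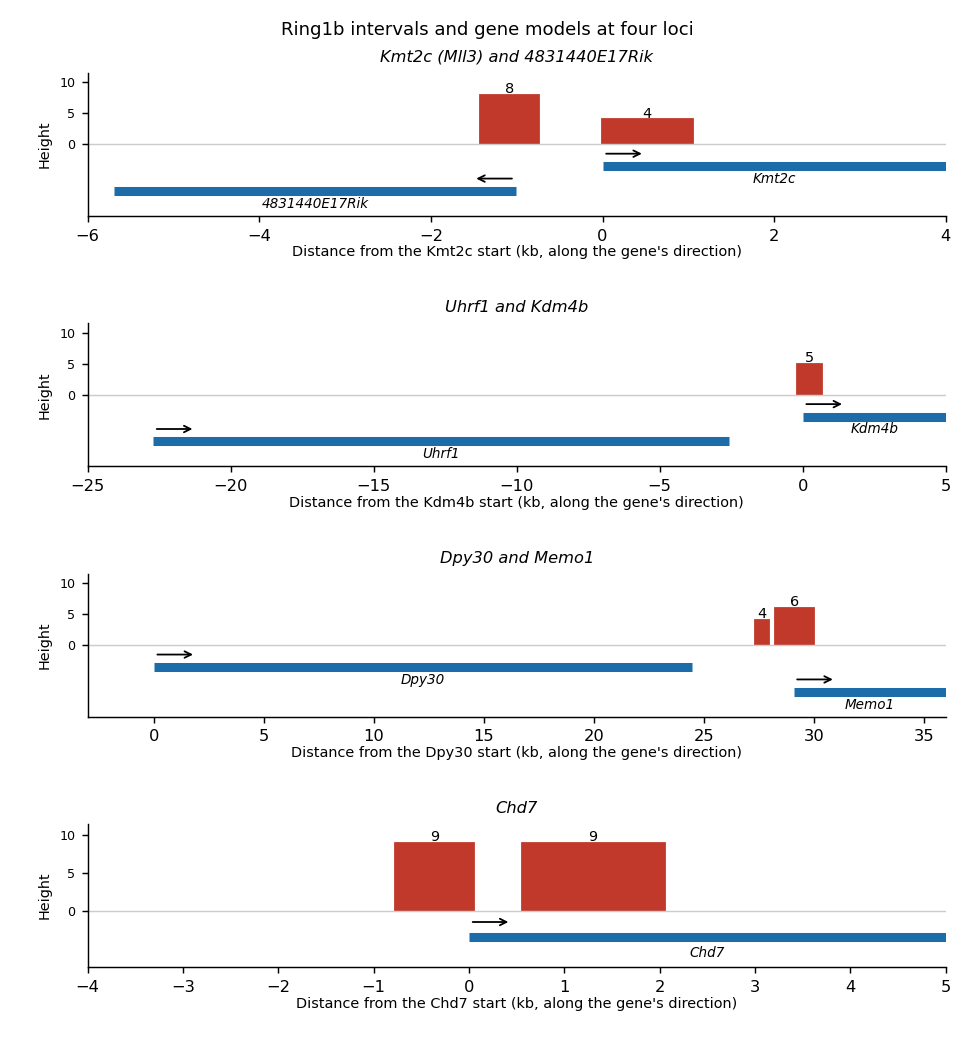
Ring1b intervals (red boxes, height in the authors' signal units on the y axis) and gene models (blue, arrows at starts) at 4 loci, by distance from the start of the gene named on the x axis (kb, in that gene's direction). The interval of height 5 assigned to Uhrf1 lies at the start of Kdm4b, those of Dpy30 lie at Memo1, and the Chd7 intervals, each of height 9, lie over its start and just inside the gene.

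Histone demethylase genes had an interval in 3 of 10 cases (30%, exact 95% interval 6.67 to 65.2%). All 3 were within 2.5 kb of the listed start (30% of the 10, against 10.4% of all protein-coding genes). Kdm4b, whose product removes methyl groups from lysine 9 of histone H3, had the highest, at 5, over its start at chr17:56325859-56326739. Kdm2a, which encodes a CpG-binding H3K36 demethylase, had one of height 4 with the summit 1291 bp upstream of its start in the table and the edge 175 bp from the outermost reference start. Kdm6b, whose product removes the Polycomb mark on H3K27, had one of height 4 inside the gene, 1915 bp from the table's start but 8423 bp from the outermost reference start. Kdm1a, Kdm3a, Kdm3b, Kdm4a, Kdm4c, Kdm5a and Kdm5b had none. Their nearest regions were 18554 bp (Kdm5a) to 2024419 bp (Kdm4c) away.

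Of the genes for DNA methylation writers and their cofactors, 3 of 5 were listed (60%, exact 95% interval 14.7 to 94.7%). Only Dnmt3a had its interval near its own start. Dnmt3a, a de novo DNA methyltransferase gene, had a height of 3 at chr12:3806106-3806709, with the summit 724 bp upstream of its start, and no other gene was assigned that interval. For Uhrf1, whose product brings Dnmt1 to newly copied DNA, the interval was the one of height 5 over the Kdm4b start, 22764 bp from the Uhrf1 start. For Dnmt3l, a cofactor gene without catalytic activity, it had a height of 4 and lay 136 bp inside Icosl, 27217 bp from the Dnmt3l start. Dnmt1, the maintenance enzyme gene, and Dnmt3b had none, with regions no closer than 278750 and 120400 bp.

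Among the TET genes, whose products oxidise 5-methylcytosine, 2 of 3 had an interval (66.7%, exact 95% interval 9.43 to 99.2%). Tet2 reached 6, with the summit 362 bp upstream of its start at chr3:133544605-133545271. Tet3 reached 4, at chr6:83450532-83450966, with the summit 9058 bp upstream of the table's start, the closest to the 10 kb limit among upstream intervals. That interval lay inside the longer Tet3 span of the reference, 6242 bp from its outermost start. Tet1 had none within 152833 bp.

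Of 6 SWI/SNF subunit genes, 3 had an interval (50%, exact 95% interval 11.8 to 88.2%). Smarca2, which encodes the ATPase Brm, had heights of 6 at chr19:26604352-26605248, over its start, and 5 at chr19:26605618-26607700, inside the gene; the second, at 2083 bp, was the widest of the 22. Smarca4, which encodes the alternative ATPase Brg1, had none. Arid1a and Arid1b encode alternative DNA-binding subunits of the same complex form. Arid1b had a height of 4, with the summit 670 bp inside the gene. Arid1a had a height of 4 at chr4:133756449-133757472, 3301 bp upstream of the table's start and over the outermost reference start, and one of height 3 at the start of Pigv. Smarcb1 and Smarcc1, which encode core subunits, had none, with the nearest regions at 110004 and 199585 bp.

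Of the 2 CHD remodeller genes, 1 was listed (50%, exact 95% interval 1.26 to 98.7%), and it held the highest signal of the list. Chd7, mutated in CHARGE syndrome and needed by neural crest cells, had 2 intervals of height 9, at chr4:8690141-8690975 over its start and at chr4:8691474-8692972 inside the gene. Of all protein-coding genes with an interval, 6.5% reached 9 or more. The run 1 mean height at Chd7 was 0. Chd8, a paralogue, was not in the table, yet a run 2 interval of height 6 and 401 bp, at chr14:52257486-52257886, overlapped the start of its promoter window. It did not reach the outermost reference start, which lies further upstream. The authors' table assigned that interval to Rab2b alone. Counting regions within 10 kb of the reference gene span, 18 of 40 genes had one (45%, exact 95% interval 29.3 to 61.5%), against 16.6% of protein-coding genes.

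Further genes of these complexes gave shares of 15.4 to 59.1%, against 15.8% of all protein-coding genes. The lowest was that of other CHD, ISWI and related remodeller genes, at 2 of 13 (15.4%), where Chd4 reached 4 and Chd2 reached 3 and Chd1 and Chd3 had none. Among other SWI/SNF genes, 13 of 22 were listed (59.1%, exact 95% interval 36.4 to 79.3%). Within 2.5 kb of the start, 12 of the 22 had an interval (54.5%), against 10.4% of all protein-coding genes. Ss18 reached 8, Arid2 reached 7 and Smarcd2 reached 5, whereas Smarcc2 and Smarcd1 had none. With the 6 subunits above, 16 of 28 SWI/SNF genes had an interval (57.1%, exact 95% interval 37.2 to 75.5%). Other genes of COMPASS and its partner complexes had 3 of 11 (27.3%). Hcfc2 and Pagr1a reached 4 and Kansl1 reached 3, and Wdr82 and Hcfc1 had none. The nearest summit of Pagr1a lay 8728 bp from its start. Other genes grouped with the histone demethylases had 5 of 16 (31.2%). Kdm7a (listed as Jhdm1d) reached 6 and Kdm5c and Riox1 reached 5, and Kdm1b and Kdm2b had none. Jarid2 and Kdm2b of this list also stand in the Polycomb list. Jarid2 is among the 5, with a height of 3 and the summit 172432 bp from its start. Other DNA methylation genes had 10 of 23 (43.5%), with Zbtb4 at 6 and Zbtb38 and Cxxc5 at 5, and none at Mbd1 or Mbd2. The nearest summits of Zbtb4 and Zbtb38 lay 7160 and 11931 bp from their starts. Polycomb subunit genes had 21 of 40 (52.5%, exact 95% interval 36.1 to 68.5%), with a median height of 4. Pcgf1 reached 11, Bap1 reached 9 and Bmi1 reached 8, and Rnf2 and Pcgf3 had none. The interval of the Polycomb share overlaps that of the 40 genes (27 to 59.1%), and the difference was not tested.

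**Figure D5:**
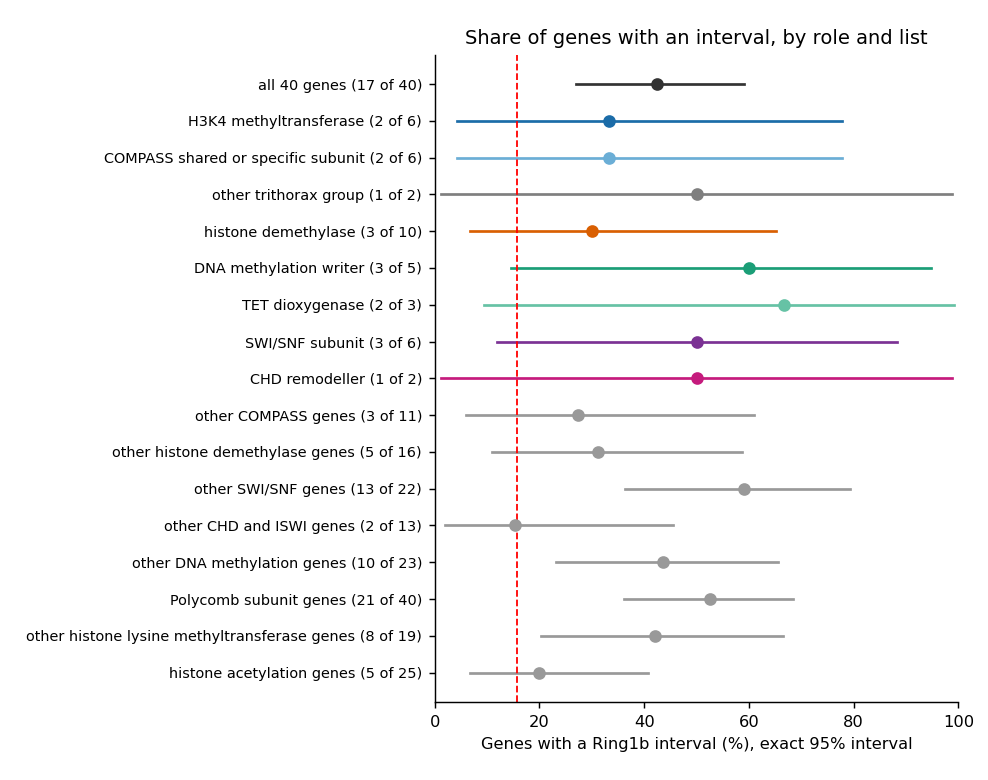
Share of genes with a Ring1b interval (x axis, %; points) with exact 95% intervals (bars) for the 40 genes, their roles and the other lists (rows, with counts), and the protein-coding background of 15.8% as a dashed line. The 40 genes stand at 42.5% and Polycomb subunits at 52.5%, and the bars of all 8 roles reach below the background.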

How the data were processed

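Ring1b ChIP-seq was measured in 1 sample of sorted incisor pulp cells. BWA, SICER and the build mm10 are named, per the submitters' processing notes, without a version or setting. The authors deposited a gene table with peak heights (a signal value whose scaling is not stated), counts of intervals per gene and run calls. Summit and interval tracks, headed replicates 1 and 2 (run 1 and run 2 here), and a track of merged regions were also deposited. A list of addresses of signal tracks was left out, since it holds no values.

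Genes were matched by gene identifier to a reference table (GRCm38.p6, the assembly mm10 names), in which 3867 of 3993 identifiers were found. Its 21887 protein-coding genes are the background. The distance in the deposited table equalled summit minus start for all 5933 interval and gene pairs, within 1 bp. Shares carry exact Clopper-Pearson 95% intervals, which cover counting error only. Depth per sample is unknown, so no floor is given. Python 3.11.15, numpy 2.4.6, pandas 2.3.3, scipy 1.17.1 and matplotlib 3.10.9 were used, and counting was tested on simulated data. The members and lists were chosen with earlier results of these data known. All 40 members were named, with up to 3 listed and the first 2 unlisted genes of each other list. Alternatives used other windows, heights, single runs, names in place of identifiers and reference gene spans, the last 2 added after seeing the data.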

Additional observations from a re-analysis of the deposited data

How the results depend on the processing

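No paired analysis was possible because each group has a single sample. The share of the 40 genes with an interval was 42.5%. It was 37.5% when matched by gene name only, 45% by reference gene span, and 42.5% with run 2 alone and with autosomes only, where the backgrounds were 14.8% and 16.6%. It was 20% at heights of 5 or more (background 7.9%), 12.5% at 6 or more (background 4.25%), 25% within 1 kb of the gene body (background 12.3%) and 0% with run 1 alone (background 1.73%). With run 1 alone the share was 0% in each of the 8 roles. At 5 or more and at 6 or more it was 0% in other trithorax genes. At 6 or more it was also 0% in histone demethylases and in DNA methylation writers and cofactors. The share at a start was 27.5%, and 22.5, 32.5 and 35% with windows of 1, 5 and 10 kb (backgrounds 9.72, 11.2 and 12.6%). It was 10% at heights of 6 or more (background 3.03%) and 0% with run 1 alone (background 0.512%). Stricter heights and run 1 alone hold fewer intervals by construction. The median height was 4 in the main setting, with run 2 alone and with the interval nearest to the start. It was 6 at heights of 5 or more and of 6 or more, where it cannot lie below the cutoff. Run 1 alone gave none, as no gene of the list had a run 1 interval. The promoter CpG comparison was not run for lack of windows. Depth is unknown and heights are low whole numbers, so small differences in height could not be resolved.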

Other observations

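Genes for histone acetylation, which lies outside the marks described above, were listed in 5 of 25 cases (20%, exact 95% interval 6.83 to 40.7%), all 5 within 2.5 kb of the start. Over all protein-coding genes these shares were 15.8% and 10.4%. The start share of the list was the same 5 of 25, and each background value lies inside its interval. Brd2, which encodes a reader of acetylated histones, reached 13, above every one of the 40 genes, and the acetyltransferase genes Kat6a and Kat6b reached 7; Crebbp and Kat2a had none. Other histone lysine methyltransferase genes were listed in 8 of 19 cases (42.1%, exact 95% interval 20.2 to 66.5%, against the same 15.8%). Kmt5a (listed as Setd8) and Smyd5 reached 7 and Setd2 reached 5, and Ehmt1 and Ehmt2 had none. The nearest summits of Kmt5a and Smyd5 lay 6182 and 19576 bp from their starts. None of the 19 genes had a height of 6 or more within 2.5 kb of the start, against 3.03% of all protein-coding genes.

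Of the 3867 deposited gene identifiers found in the reference, 231 (5.97%) carried another symbol there. Of the 83 genes of the lists used here that were in the table, 6 were under another symbol: Kmt2c, Kmt2e, Kdm7a, Riox1, Kmt5a and Kmt5c. Of the 2681 protein-coding genes whose reference span was overlapped by a region, 104 (3.88%) were not in the table, Chd8 among them.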
